A study of Mus musculus with 34 samples.

Results

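Described here are 10 genes, *Atf4*, *Atf5*, *Ddit3*, *Trib3*, *Chac1*, *Asns*, *Phgdh*, *Psat1*, *Shmt2* and *Mthfd2*, the genes of the ATF4 stress response and of the serine and mitochondrial one-carbon pathway tied to it. All 10 were found by symbol among the 16389 genes measured by bulk RNA-seq in mouse brain, and 9 of them were among the 14688 genes tested. *Trib3* was left out of the tests because it did not reach an FPKM of 1 in 3 libraries, FPKM being a read level scaled for the length of the transcript and the depth of the library. The set was chosen by measured values, namely the lower level of *Mthfd2* in the cortex of GFP-BM CON than of WT CON mice, with earlier results of these data known, so the values of the 10 genes in that comparison are described without any test.

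The animals were 12 male C57BL/6 mice in 3 groups, and the sources differ on their age at irradiation. WT CON mice received neither irradiation nor transplant nor inhibitor. GFP-BM CON mice received whole-body irradiation with 1000 cGy and bone marrow from CAG-EGFP donors, whose cells carry green fluorescent protein from a ubiquitous promoter. GFP-BM REPOP mice were treated likewise and, 3.5 months after irradiation, ate PLX3397 chow (600 ppm) over 14 days, an inhibitor of the CSF1 receptor that removes microglia. They then recovered for 6 months, a time in which marrow-derived cells can fill the emptied niche. All mice were perfused with saline, and cortex, hippocampus and thalamus (dissected together with striatum) gave 34 libraries, 4 per group and region except for 3 in the WT CON cortex and 3 in the GFP-BM CON thalamus. Irradiation and transplant were always given together and cannot be told apart, and the 2 groups with marrow both carry them.

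ATF4 is the transcription factor through which cells answer blocked translation initiation, whether the trigger is amino acid shortage, misfolded protein in the endoplasmic reticulum or mitochondrial trouble. The answer as a whole is called the integrated stress response. ATF4 protein is made mainly by a change in translation of its mRNA, so that the mRNA level of *Atf4* is not a reading of the activity of the factor. Its targets include further regulators (*Atf5*, *Ddit3* and *Trib3*), asparagine synthetase, and the enzymes that make serine and pass its carbon on to mitochondrial folate, in which *Shmt2* and *Mthfd2* take the first steps.

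ATF4 binds DNA together with C/EBP proteins at a composite element, and the 8-base core TGATGNAA was searched on both strands in the promoters of RefSeq (build GRCm38.p6, 250 bases before to 50 after the start of transcription). All 10 genes had a promoter there, 12 promoters in total. The only window of *Mthfd2* (chr6:83317555-83317854, minus strand) lay inside the span given for the gene below. The upstream end of that span was therefore not searched. The core was held by 3 genes, each in its only promoter, against 3.97% of all 32851 promoters. The stretches that hold it are shown with the core in capitals, read in the direction of the gene. *Chac1* and *Asns* had lower levels in both irradiated groups of the cortex, but so had *Mthfd2*, *Atf4* and *Phgdh*, which held no match in the windows searched. A link between the core and the levels was not tested. In *Chac1* (chr2:119350992-119351116, plus strand) the core lay on the opposite strand and its first base was at -193 from the start. In *Asns* (chr6:7693210-7693292, minus strand) it lay on the strand of the gene, at -23. In *Trib3* (chr2:152344028-152344057, minus strand) it lay on the opposite strand, inside the transcript at base 15.
Chac1: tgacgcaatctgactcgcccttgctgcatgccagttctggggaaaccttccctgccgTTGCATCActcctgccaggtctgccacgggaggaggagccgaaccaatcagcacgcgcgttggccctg
Asns: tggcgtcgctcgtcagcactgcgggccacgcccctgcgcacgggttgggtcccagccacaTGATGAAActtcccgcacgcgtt
Trib3: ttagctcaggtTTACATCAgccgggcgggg
The other 7 genes had no match of these letters in the window, which says nothing about binding elsewhere. In the same build *Atf4* lies on chromosome 15 (80255184 to 80257545), *Mthfd2* on chromosome 6 (83305704 to 83326011), *Shmt2* and *Ddit3* both on chromosome 10 (from 127517123 and from 127290793), *Psat1* on chromosome 19 (from 15905123), *Phgdh* on chromosome 3 (from 98313171) and *Atf5* on chromosome 7 (from 44812256).

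The libraries held between 17085018 and 26010509 reads by a recovery of whole reads from the FPKM values, so the genes were not equally well measured. *Mthfd2* rested on 87 to 384 reads per library, *Chac1* on 84 to 297, *Trib3* on 4 to 52, and *Asns* on 1462 to 2800. Libraries also differed in makeup. The GC measure of a library, the median log2 level of the tenth of genes richest in GC minus that of the tenth poorest, was 1.19 to 3.71 in the WT CON thalamus and 0.48 to 1.00 in the 7 other thalamus libraries, and WT CON thalamus replicate 2 stood highest at 3.71. It was 1.85 to 3.43 in the WT CON hippocampus and 0.73 to 2.13 in the GFP-BM CON hippocampus, but 0.81 to 1.32 against 0.42 to 0.63 in the cortex. Among hippocampus libraries the summed FPKM of 5 choroid plexus markers ran from 24.0 to 6490, and 1 GFP-BM REPOP library reached 1230 for 6 striatal markers, so dissection was uneven there. All 6 neuronal, all 10 astrocyte and all 6 microglial markers were above 0 in each group of libraries.

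**Figure D1:**
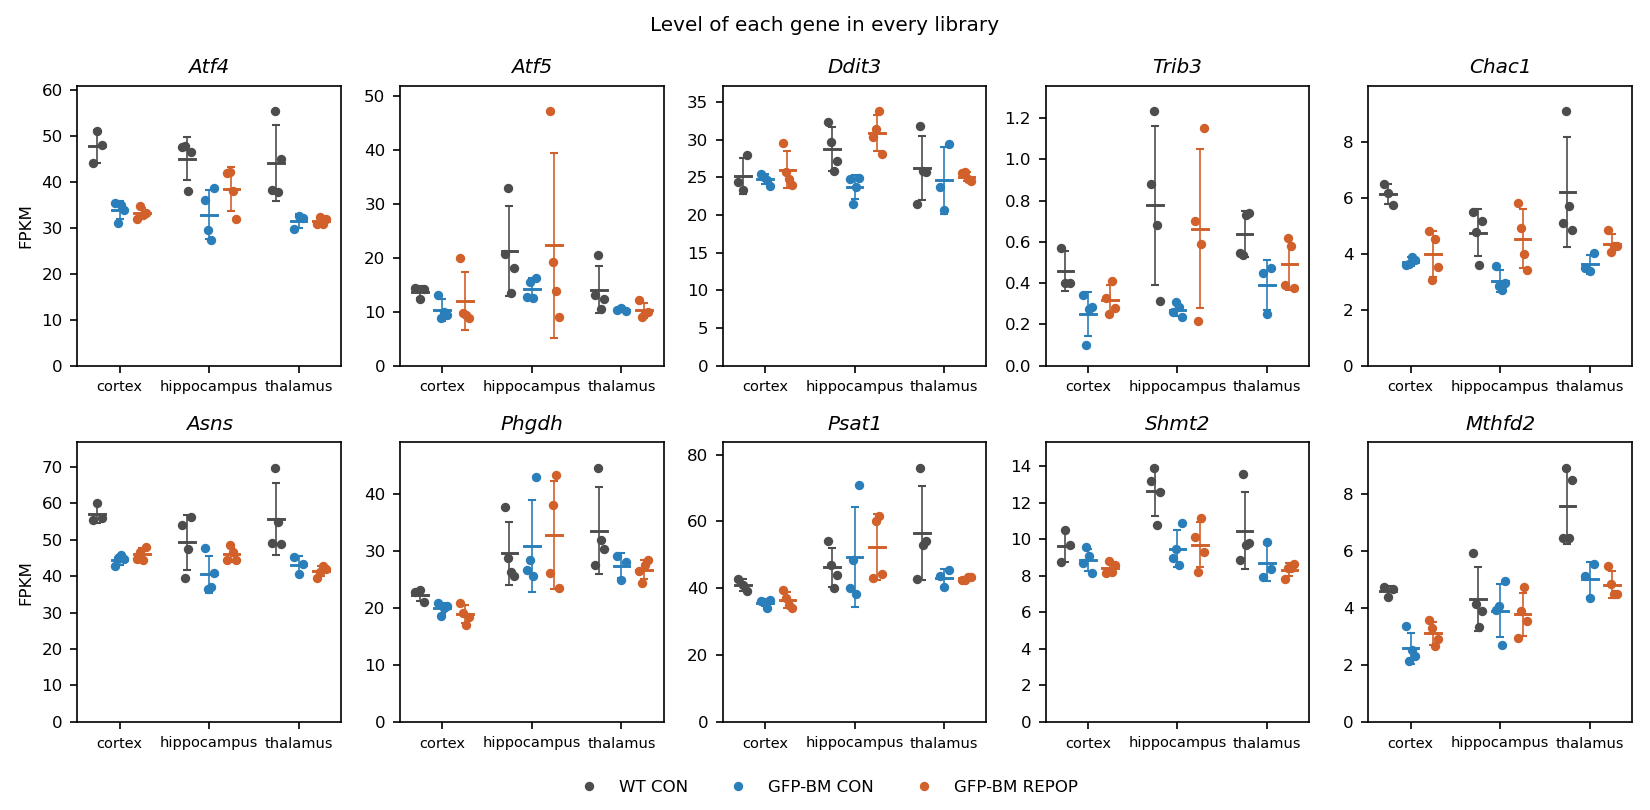
Level of each of the 10 genes (FPKM, linear axes from 0) in all 34 libraries by region and group. Points are libraries, horizontal lines are means and bars are SD. In the cortex the WT CON points of *Atf4*, *Asns*, *Chac1*, *Phgdh* and *Mthfd2* lie above all 8 points of the irradiated groups, and in the hippocampus the groups overlap for most genes.

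In the cortex *Mthfd2*, the mitochondrial methylenetetrahydrofolate dehydrogenase, had levels of 4.72, 4.36 and 4.64 FPKM in the 3 WT CON libraries. In GFP-BM CON it had 3.36, 2.14, 2.53 and 2.30, and in GFP-BM REPOP 3.56, 3.30, 2.67 and 2.89. Every irradiated library was below every WT CON library, and the means were 43.5% lower in GFP-BM CON and 32.1% lower in GFP-BM REPOP. These are the values that chose the gene, and both differences share the WT CON libraries, so no p is given for either. The log2 difference of GFP-BM CON from WT CON was -0.82 ± 0.15 (SE), and it stayed between -0.95 and -0.65 under 25 settings of the analysis.

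The regulators differed from each other in the cortex. *Atf4* stood at 44.0, 51.1 and 48.0 FPKM in WT CON, at 35.4, 31.0, 34.9 and 33.8 in GFP-BM CON, and at 32.0, 34.8, 32.8 and 33.2 in GFP-BM REPOP. The 2 irradiated groups thus lay together, with means 29.2% and 30.4% below WT CON and no overlap. *Ddit3*, which encodes the stress factor CHOP, had 24.4, 23.2 and 27.9 FPKM in WT CON, 25.4, 25.1, 24.6 and 23.9 in GFP-BM CON, and 29.5, 25.7, 24.8 and 23.9 in GFP-BM REPOP. Its groups overlapped fully. *Atf5*, a relative of *Atf4*, had 14.4, 12.4 and 14.3 in WT CON and 8.80 to 13.2 in GFP-BM CON, while in GFP-BM REPOP 3 libraries lay between 8.94 and 9.71 and replicate 1 reached 20.0. *Trib3*, a pseudokinase that feeds back on the response, was barely expressed, with means of 0.457 ± 0.0965 (SD, n = 3), 0.250 ± 0.105 (n = 4) and 0.318 ± 0.0705 FPKM (n = 4) in the same order of groups.

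Of the effector genes, *Chac1* (a glutathione-degrading enzyme) gave 6.49, 6.17 and 5.76 FPKM in the WT CON cortex, 3.59, 3.63, 3.90 and 3.78 in GFP-BM CON, and 4.83, 3.08, 4.54 and 3.52 in GFP-BM REPOP. *Asns*, which makes asparagine from aspartate and glutamine, gave 55.4, 60.1 and 55.9 in WT CON, 42.7, 45.0, 45.9 and 44.6 in GFP-BM CON, and 44.8, 46.7, 44.5 and 48.1 in GFP-BM REPOP. Both separated WT CON from all 8 irradiated libraries, as 1.88% of all genes did. The serine enzymes moved less. *Phgdh*, the first enzyme of serine synthesis, gave 22.7, 23.1 and 21.0 in WT CON, 20.8, 18.5, 20.0 and 20.3 in GFP-BM CON, and 20.8, 19.2, 17.0 and 18.4 in GFP-BM REPOP, a narrow gap without overlap. *Psat1*, the second enzyme, was 39.2 to 42.8 in WT CON, 34 to 36.6 in GFP-BM CON and 34.2 to 39.4 in GFP-BM REPOP. *Shmt2*, which hands the carbon of serine to mitochondrial folate, was 8.76 to 10.5, 8.13 to 9.55 and 8.13 to 8.80, and its groups overlapped.

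For GFP-BM REPOP against WT CON in the cortex, the genes other than *Mthfd2* were tested by limma on log2(FPKM + 0.1) with Benjamini-Hochberg adjustment over all genes tested. *Atf4* fell by 0.52 ± 0.06 (SE) on the log2 scale (adjusted p = 0.0026) and *Asns* fell by 0.31 ± 0.04 (adjusted p = 0.0085). These were 2 of 8 genes, where 0.34% of all genes were called lower. *Chac1* (log2 difference -0.63, adjusted p = 0.065), *Phgdh* (-0.24, adjusted p = 0.16), *Psat1* (-0.17, adjusted p = 0.21) and *Shmt2* (-0.19, adjusted p = 0.30) had an unadjusted p under 0.05 and did not pass. The median log2 difference of the 9 genes was -0.27 in this comparison, and that of all genes 0.02. The test shares its WT CON libraries with the comparison on which the genes were chosen and is not independent of it. With all 9 groups of libraries in 1 fit neither gene passed (adjusted p of 0.076 for *Atf4* and 0.77 for *Asns*), with only the 2 groups compared *Atf4* alone passed, and without GFP-BM REPOP replicate 1 *Chac1* and *Phgdh* passed as well. Corrected for GC content and length, *Atf4* came to -0.50, *Asns* to -0.31 and *Chac1* to -0.61 (adjusted p = 0.0036, 0.02 and 0.045 by limma). *Chac1* also passed with array weights (-0.66, adjusted p = 0.034).

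Every library of GFP-BM CON lay below every library of WT CON in the cortex for 6 of the 9 genes, where 4.43% of all genes were so placed and 0.109% of all genes were called lower. Nothing is read from this count, as the comparison chose the genes. The corresponding number for GFP-BM REPOP was 5 of 9 with *Mthfd2* among them, beside 4.59% of all genes. Nothing is read from it either, since it rests on the same WT CON libraries. The summed FPKM of 6 microglial markers was also higher in WT CON than in all 8 irradiated libraries, with 92.2 to 105 in WT CON, 75.2 to 82.4 in GFP-BM CON and 70.1 to 76.0 in GFP-BM REPOP. Of the other marker lists, those of cortex (211 to 223, then 188 to 207 and 172 to 210) and choroid plexus (413 to 455, then 51.3 to 411 and 54.3 to 371) were likewise higher in every WT CON library. That of engrafted myeloid cells was lower (7.98 to 9.28, then 11.4 to 19.9 and 59.5 to 96.3). The astrocyte sums overlapped (956 to 1020, 929 to 1020 and 949 to 1010). The sum of 6 immediate early genes was 269 to 399 in WT CON, 197 to 253 in GFP-BM CON and 101 to 296 in GFP-BM REPOP. The part of these lists in the differences was not tested, and in bulk tissue fewer cells of a type and less RNA per cell cannot be told apart.

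**Figure D2:**
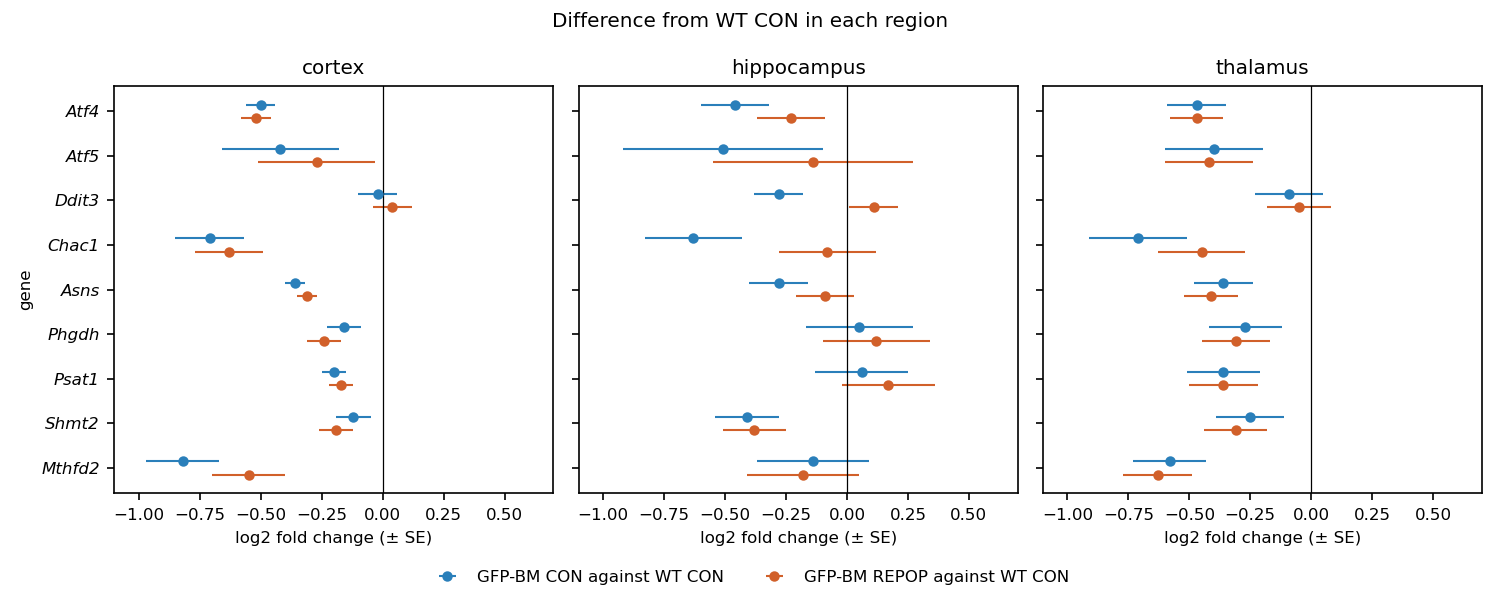
Log2 difference from WT CON (x axis, on the log2(FPKM + 0.1) scale) of the 9 genes tested (y axis) in each region, for GFP-BM CON and GFP-BM REPOP. Points are estimates and bars are SE. *Ddit3* sits near 0 in the cortex and thalamus, *Atf4* sits at about -0.5 in both groups there, and in the hippocampus the GFP-BM REPOP points of *Atf4*, *Chac1* and *Asns* lie nearer to 0 than those of GFP-BM CON.

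The 2 irradiated groups were compared in the cortex to set the inhibitor and the repopulating cells apart from irradiation with transplant. None of the 8 genes tested passed, none reached an unadjusted p of 0.05, and 0.0477% of all genes were called. *Atf4* differed by -0.02 ± 0.05 (SE) on the log2 scale and *Asns* by 0.05 ± 0.04. *Mthfd2*, given without a test, had a mean of 3.11 ± 0.400 FPKM (SD, n = 4) in GFP-BM REPOP and 2.58 ± 0.542 (n = 4) in GFP-BM CON, and the 2 ranges overlapped.

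Lists of related genes, drawn up with earlier results known, were read in the same fits. Of 100 such genes tested, 5 were called lower and 0 higher when the cortex of GFP-BM REPOP mice was set against WT CON. Of all genes 0.34% were called lower there. These tests share their WT CON libraries with the comparison that chose the set and are not independent of it. Of 12 tRNA synthetases 3 were lower: *Cars* (17.7 ± 1.11 FPKM in WT CON, 14.1 ± 0.702 after repopulation, adjusted p = 0.026 by limma), *Yars* (39.6 ± 1.52 and 33.6 ± 1.51, adjusted p = 0.028) and *Nars* (92.0 ± 2.62 and 79.3 ± 2.71, adjusted p = 0.020), which charge tRNAs with cysteine, tyrosine and asparagine. The remaining 2 were amino acid carriers among 23 ATF4 targets and transporters, *Slc7a3* for cationic amino acids (5.23 ± 0.168 and 3.15 ± 0.443, adjusted p = 0.040 by limma) and *Slc7a5* for large neutral ones (21.0 ± 0.626 and 16.6 ± 0.665, adjusted p = 0.021). All these errors are SD, with n = 3 in WT CON and n = 4 in GFP-BM REPOP. The median log2 differences of the synthetases and of the targets and transporters were -0.13 and -0.15, beside 0.02 for all genes. In GFP-BM CON the means were 13.9 FPKM for *Cars*, 32.3 for *Yars*, 78.6 for *Nars* and 3.03 for *Slc7a3*. These are the list genes called lower against WT CON in the comparison that chose the set, so nothing is read from them. Of all genes 0.109% were called lower there. *Slc7a5* was not called in that comparison and its mean is not given. The 5 calls were lost under some settings: none was left without WT CON replicate 2 or 3, without the trend in the variance or with other choices of groups in the fit, and 1 to 3 were left without GFP-BM REPOP replicate 4, 3 or 2 or WT CON replicate 1.

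None of the 22 other serine and folate genes was called in the cortex. *Mthfd2l*, which encodes the paralog of MTHFD2, stood at 3.08 ± 0.351 FPKM in WT CON, 3.56 ± 0.231 in GFP-BM CON and 3.31 ± 0.506 in GFP-BM REPOP (SD, n = 3, 4 and 4), so its means were not lower in the irradiated mice. The cytosolic *Mthfd1* (12.7 ± 0.444, 13.1 ± 0.370 and 13.0 ± 0.463) and *Shmt1* (1.29 ± 0.302, 1.3 ± 0.0823 and 1.51 ± 0.140), and the mitochondrial *Mthfd1l* (4.10 ± 0.781, 3.86 ± 0.314 and 4.09 ± 0.372), overlapped between groups. *Psph*, the last enzyme of serine synthesis, was 9.62 ± 0.576 in WT CON, 8.15 ± 0.538 in GFP-BM CON and 8.74 ± 0.231 in GFP-BM REPOP. All 8 irradiated libraries were below WT CON, as for 1.88% of all genes, and the adjusted p for GFP-BM REPOP was 0.37 by limma. *Hspa5*, the main chaperone of the endoplasmic reticulum, was 78.5 ± 4.84, 82.0 ± 2.99 and 76.9 ± 4.87, and none of the 16 genes of the unfolded protein response, 12 stress sensors and regulators, 8 purine synthesis genes or 7 mitochondrial chaperones and proteases was called in any comparison between treatment groups.

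In the thalamus *Mthfd2* was at 6.44, 8.91, 6.43 and 8.48 FPKM in WT CON. It was at 5.12, 4.33 and 5.55 in GFP-BM CON and at 5.46, 4.82, 4.48 and 4.47 in GFP-BM REPOP. All 7 irradiated libraries were below all 4 WT CON libraries, as for 3.7% of all genes. This tissue did not enter the choice of the gene but comes from the same mice, apart from 1 WT CON animal with no cortex library. The log2 difference was -0.58 ± 0.15 (SE, adjusted p = 0.10 by limma over all genes) for GFP-BM CON and -0.63 ± 0.14 (adjusted p = 0.056) for GFP-BM REPOP, so neither passed.

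*Atf4* went the same way, with 38.2, 55.3, 37.7 and 45.0 FPKM in the WT CON thalamus, 29.7, 32.5 and 32.2 in GFP-BM CON and 30.8, 32.4, 30.7 and 31.9 in GFP-BM REPOP. Its log2 difference was -0.47 ± 0.12 (adjusted p = 0.10 by limma) and -0.47 ± 0.11 (adjusted p = 0.068). *Asns* was 49.2, 69.8, 54.8 and 48.8 in WT CON, 45.4, 40.5 and 43.3 in GFP-BM CON, and 39.5, 41.3, 42.9 and 42.0 in GFP-BM REPOP. *Chac1* was 5.10, 9.09, 5.72 and 4.86, then 3.48, 3.38 and 4.02, then 4.85, 4.08, 4.27 and 4.27. For these genes too the WT CON libraries were above all others, and replicate 2 of WT CON was the highest by far. *Asns* differed by -0.36 and -0.41 (adjusted p = 0.17 and 0.080) and *Chac1* by -0.71 and -0.45 (adjusted p = 0.11 and 0.18).

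The serine and one-carbon genes of the thalamus were lower in mean but overlapped for the most part. *Psat1* was 42.7, 76.1, 53.1 and 54.0 FPKM in WT CON, 40.3 to 45.5 in GFP-BM CON and 42.5 to 43.4 in GFP-BM REPOP. *Phgdh* was 27.5 to 44.6, 24.9 to 29.1 and 24.4 to 28.4, and *Shmt2* was 8.83 to 13.6, 7.93 to 9.84 and 7.84 to 8.64. *Psat1* had an unadjusted p under 0.05 in both comparisons (log2 difference -0.36 in each), and *Phgdh* (-0.31), *Shmt2* (-0.31) and *Atf5* (-0.42) in that of GFP-BM REPOP alone, with adjusted p values by limma from 0.17 to 0.23. *Ddit3* again did not stand apart, with means of 26.2 ± 4.27, 24.6 ± 4.45 and 25.1 ± 0.589 (SD, n = 4, 3 and 4), and *Trib3* had 0.638 ± 0.111, 0.390 ± 0.121 and 0.491 ± 0.125.

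No gene of the set passed in the thalamus. For GFP-BM REPOP against WT CON the paper, by its own analysis with limma and edgeR, reports the most differing genes in this region. The fits used here called few genes of the whole table, 0.0% for GFP-BM CON against WT CON and 0.831% for GFP-BM REPOP against WT CON. In all, 5 and 8 of the 9 genes had an unadjusted p under 0.05, where 20.7% and 25.0% of all genes did. For 4 and 5 of the 9, all libraries lay below WT CON, beside 8.42% and 6.84% of all genes. The median log2 difference of the set was -0.36 and -0.41, beside -0.06 and -0.05 for all genes. Between the 2 irradiated groups none of the 9 reached an unadjusted p of 0.05 (0.0% of all genes called), with a log2 difference of 0.00 ± 0.12 (SE) for *Atf4* and -0.05 ± 0.15 for *Mthfd2*.

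Single libraries decided the calls in the thalamus. Without WT CON replicate 1, *Mthfd2* (-0.65, adjusted p = 0.037), *Atf4* (-0.53, adjusted p = 0.033) and *Chac1* (-0.79, adjusted p = 0.048) passed by limma for GFP-BM CON, and *Mthfd2*, *Asns*, *Atf4* and *Psat1* passed for GFP-BM REPOP. Without WT CON replicate 2, the library of highest GC measure, *Mthfd2* still differed by -0.50 and -0.55 and *Atf4* by -0.35 in each comparison, and *Asns* came to -0.24 and -0.30. In GFP-BM REPOP *Chac1* went to -0.25, *Psat1* to -0.21, *Phgdh* to -0.16, *Shmt2* to -0.18 and *Atf5* to -0.22. Corrected for GC content and length, *Atf4* came to -0.23 in both comparisons and *Chac1* to -0.46 and -0.20. In GFP-BM REPOP *Phgdh* and *Shmt2* came to -0.06 and *Atf5* to -0.17. Under that correction *Mthfd2* was at -0.49 and -0.54 and *Asns* at -0.39 and -0.44. The microglial sum was 96.5 to 148 in WT CON and 78.5 to 84.2 in the other 7 libraries. The neuronal sum was 781 to 1370 against 1410 to 1510 and the engrafted myeloid sum 14.5 to 31.3 against 37.9 to 191. The immediate early genes summed to 90.8 to 118 in WT CON, 58.2 to 73.5 in GFP-BM CON and 43.3 to 98.3 in GFP-BM REPOP. The part of these sums in the result was not tested.

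**Figure D3:**
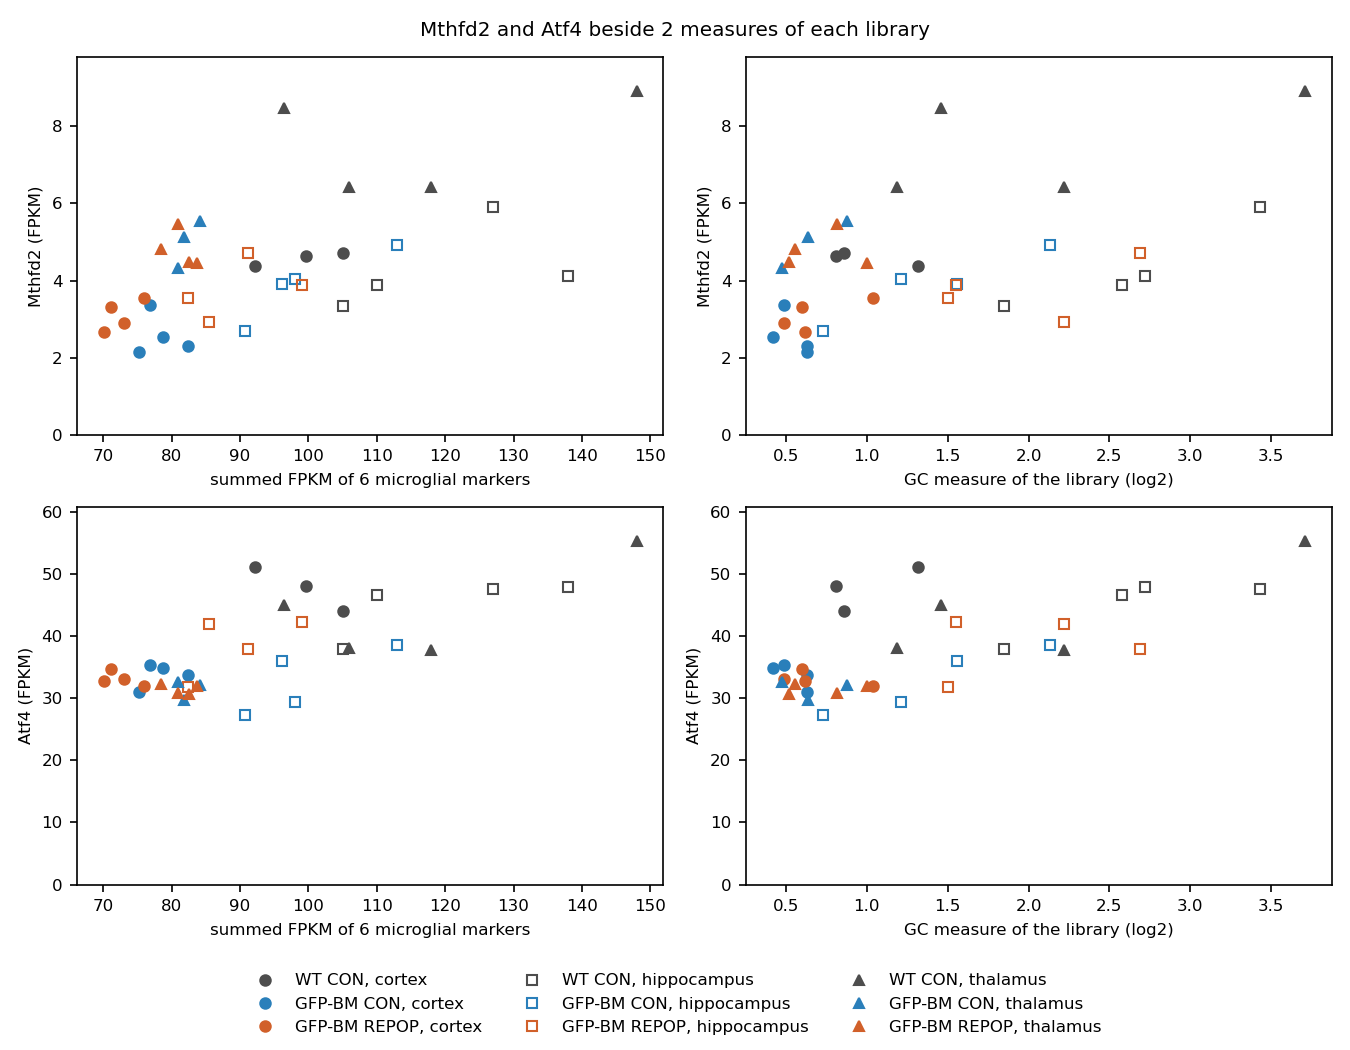
Level of *Mthfd2* (upper row) and *Atf4* (lower row) in FPKM against the summed FPKM of 6 microglial markers (left) and the GC measure of the library (right), 1 point for each of 34 libraries, with colour for the group and shape for the region. WT CON thalamus replicate 2 lies at the far right of all 4 panels (148 and 3.71). In the cortex the WT CON points stand above the others in both genes. Their GC measure (0.81 to 1.32) is also above that of GFP-BM CON (0.42 to 0.63) and overlaps that of GFP-BM REPOP (0.49 to 1.04).

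Of the related genes in the thalamus, *Mthfd2l* had means of 4.73 ± 1.06 FPKM in WT CON, 5.18 ± 0.123 in GFP-BM CON and 5.12 ± 0.884 in GFP-BM REPOP (SD, n = 4, 3 and 4), and its groups overlapped, unlike those of *Mthfd2*. The groups also overlapped for *Mthfd1* (16.4 ± 2.78, 14.8 ± 0.374 and 14.5 ± 0.607), *Mthfd1l* (4.21 ± 0.316, 3.68 ± 0.334 and 3.56 ± 0.482), *Shmt1* (1.36 ± 0.257, 1.48 ± 0.195 and 1.41 ± 0.420), *Psph* (9.13 ± 1.22, 7.86 ± 0.546 and 7.90 ± 0.782) and *Hspa5* (80.6 ± 13.2, 90.8 ± 7.92 and 88.7 ± 6.14). None of the 100 list genes was called in the thalamus or the hippocampus.

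In the hippocampus *Mthfd2* did not separate the groups. It had 5.92, 4.13, 3.34 and 3.88 FPKM in WT CON, 3.91, 4.05, 2.70 and 4.93 in GFP-BM CON, and 2.94, 3.87, 4.72 and 3.54 in GFP-BM REPOP. The log2 difference was -0.14 ± 0.23 (SE) and -0.18 ± 0.23, an error larger than in the cortex. Whether its difference from WT CON was unlike that in the thalamus was tested as a contrast of contrasts, and it was not shown to be (thalamus minus hippocampus -0.43 ± 0.27 and adjusted p = 1.0 by limma for GFP-BM CON, -0.45 ± 0.26 and adjusted p = 0.54 for GFP-BM REPOP).

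Several stress genes of the hippocampus had their lowest means in GFP-BM CON, though none passed the test. *Atf4* had 47.6, 47.9, 38.0 and 46.5 FPKM in WT CON, 36, 29.4, 27.3 and 38.5 in GFP-BM CON and 41.9, 42.2, 37.9 and 31.9 in GFP-BM REPOP. *Chac1* had 5.48, 4.77, 3.60 and 5.19, then 3.58, 2.83, 2.71 and 2.95, then 5.81, 4.93, 4.00 and 3.40. *Chac1* in GFP-BM CON was below all WT CON libraries, by the narrowest of margins, and *Atf4* overlapped by 1 library of each group. *Ddit3* had 32.4, 29.7, 25.8 and 27.2 in WT CON, 24.7, 21.4, 23.7 and 24.9 in GFP-BM CON and 30.4, 31.4, 33.7 and 28.1 in GFP-BM REPOP, so that GFP-BM CON was below both other groups with no overlap.

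For GFP-BM CON against WT CON, *Atf4* (log2 difference -0.46 ± 0.14, adjusted p = 0.088 by limma), *Chac1* (-0.63 ± 0.20, adjusted p = 0.097), *Shmt2* (-0.41 ± 0.13, adjusted p = 0.10), *Ddit3* (-0.28 ± 0.10, adjusted p = 0.13) and *Asns* (-0.28 ± 0.12, adjusted p = 0.19) had an unadjusted p under 0.05, and none passed. Of all genes 0.0% were called, although 24.0% had an unadjusted p under 0.05. All GFP-BM CON libraries lay below all WT CON libraries for 2 of the 9 genes, beside 8.33% of all genes. *Shmt2* was 10.8 to 13.9 FPKM in WT CON, 8.57 to 10.9 in GFP-BM CON and 8.23 to 11.2 in GFP-BM REPOP, where it differed from WT CON by -0.38 ± 0.13 (adjusted p = 0.44), the only gene of the set with an unadjusted p under 0.05 in that comparison. There, 0.0136% of all genes were called and no gene of the set had all libraries below WT CON, beside 1.89% of all genes.

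Between the 2 irradiated groups of the hippocampus (GFP-BM REPOP minus GFP-BM CON), *Ddit3* had a log2 difference of 0.38 ± 0.10 (SE, adjusted p = 0.20 by limma) and *Chac1* of 0.55 ± 0.20 (adjusted p = 0.33), and the other 7 genes had an unadjusted p over 0.05. Neither passed, where 0.0272% of all genes did. *Ddit3* was the 1 gene of the 9 with all GFP-BM REPOP libraries above GFP-BM CON, beside 4.15% of all genes. The tissue differed between these groups as well. The cortex marker sum was higher in GFP-BM REPOP (85.2 to 221) than in GFP-BM CON (60.3 to 74.1). The thalamus marker sum was lower (24.0 to 34.2 against 41.9 to 86.9), and the other marker lists overlapped. The part of these sums was not tested. In this region *Trib3* was 0.880, 1.23, 0.682 and 0.313 FPKM in WT CON, 0.262, 0.307, 0.284 and 0.236 in GFP-BM CON, and 0.7, 0.216, 0.589 and 1.15 in GFP-BM REPOP, the only libraries of the series above 1 FPKM being 1 of WT CON and 1 of GFP-BM REPOP. *Atf5* scattered most, from 9.04 to 47.2 in GFP-BM REPOP. *Psat1* (38.4 to 70.9) and *Phgdh* (25.6 to 42.9) in GFP-BM CON were both highest in the same library, replicate 4.

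*Mthfd2l* in the hippocampus was 2.85 ± 0.118 FPKM in WT CON, 3.07 ± 0.324 in GFP-BM CON and 3.69 ± 0.730 in GFP-BM REPOP (SD, n = 4 each), and *Hspa5* 78.2 ± 5.86, 85.5 ± 12.3 and 74.6 ± 5.63. Both overlapped between groups, as did *Mthfd1*, *Mthfd1l*, *Shmt1* and *Psph*.

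As in the thalamus, calls in the hippocampus turned on the choice of libraries and fit. *Atf4* and *Chac1* passed for GFP-BM CON without WT CON replicate 3, and *Atf4* without GFP-BM CON replicate 4. Corrected for GC content and length, the differences of GFP-BM CON from WT CON were -0.24 for *Atf4*, -0.41 for *Chac1*, -0.18 for *Shmt2*, -0.29 for *Asns* and -0.50 for *Ddit3*. The GC measure and the microglial sum (105 to 138 in WT CON, 90.7 to 113 in GFP-BM CON, 82.4 to 99.1 in GFP-BM REPOP) moved with these groups. The astrocyte sum of GFP-BM CON (1090 to 1140) was above that of WT CON (788 to 997) and its cortex marker sum (60.3 to 74.1) below it (76.8 to 85.3), both without overlap. The means of the neuronal sum (1040 and 1430) and of hippocampal markers (86.4 and 174) were higher in GFP-BM CON. The part of these measures was not tested. No gene of the set differed between thalamus and hippocampus in any of 3 contrasts of contrasts (0 of 9 in each, with 0.0%, 0.034% and 0.0272% of all genes called). An unadjusted p under 0.05 was reached by *Asns* (-0.32, adjusted p = 0.47 by limma) and *Psat1* (-0.53, adjusted p = 0.46) for GFP-BM REPOP against WT CON and by *Ddit3* (-0.34, adjusted p = 0.62) for GFP-BM REPOP against GFP-BM CON.

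Levels of *Mthfd2* in the untreated brain were higher in the thalamus than in both other regions, while those in cortex and hippocampus were close (hippocampus minus cortex -0.11 ± 0.19 on the log2 scale). Its mean in WT CON was 7.56 ± 1.32 FPKM in the thalamus (SD, n = 4), 4.58 ± 0.188 in the cortex (n = 3) and 4.32 ± 1.12 in the hippocampus (n = 4). The thalamus was above the cortex by 0.70 ± 0.19 (SE) on the log2 scale (adjusted p = 0.010 by limma with the animal as a random block), and the hippocampus below the thalamus by a log2 difference of -0.81 ± 0.18 (adjusted p = 0.0027). The WT CON cortex libraries are among those that chose the gene, so the test of thalamus against cortex is not independent of that choice. In the irradiated mice all thalamus libraries were above all cortex libraries, with means of 5.0 ± 0.616 against 2.58 ± 0.542 in GFP-BM CON and 4.81 ± 0.465 against 3.11 ± 0.400 in GFP-BM REPOP. The GFP-BM CON cortex values chose the gene for being low, so nothing is read from the gap in that group. Ordered by mean, the 9 groups ran from the GFP-BM CON cortex (2.58) through the GFP-BM REPOP cortex (3.11), the hippocampus of GFP-BM REPOP (3.77), GFP-BM CON (3.90) and WT CON (4.32), the WT CON cortex (4.58) and the thalamus of GFP-BM REPOP (4.81) and GFP-BM CON (5.0) to the WT CON thalamus (7.56). Only the WT CON thalamus stood clear of its neighbour, and the ranges of all other neighbours in this order overlapped. *Mthfd2l* was likewise higher in the thalamus of WT CON (4.73 ± 1.06, n = 4) than in the cortex (3.08 ± 0.351, n = 3, adjusted p = 0.013 by limma) and the hippocampus (2.85 ± 0.118, n = 4, adjusted p = 0.0033).

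*Phgdh* was also higher in the WT CON thalamus than in the cortex (33.5 ± 7.57 FPKM, n = 4, and 22.3 ± 1.11, n = 3, log2 difference 0.57, adjusted p = 0.023 by limma), and *Shmt2* was higher in the hippocampus than in the cortex (12.6 ± 1.33 and 9.63 ± 0.861, log2 difference 0.38, adjusted p = 0.017). In all, 2 of the 9 genes were called between thalamus and cortex, 1 between hippocampus and cortex and 1 between hippocampus and thalamus, where 30.0%, 37.0% and 17.8% of all genes were called, so that a call between regions was no more common in the set than among all genes. *Atf4* (47.7 ± 3.56, 45.0 ± 4.71 and 44.0 ± 8.21 in cortex, hippocampus and thalamus) was among the genes not called. Corrected for GC content and length, *Phgdh* came to 0.31 (adjusted p = 0.054) and *Shmt2* to 0.07 (adjusted p = 0.53), while *Mthfd2* still passed in both of its comparisons (0.57, adjusted p = 0.012, and -0.85, adjusted p = 0.00025). With only the WT CON libraries and the animal as a fixed block none of these calls was left (adjusted p = 0.16 and 0.11 for *Mthfd2*, 0.17 for *Phgdh* and 0.19 for *Shmt2*), *Phgdh* was lost without WT CON cortex replicate 1 or 3 or thalamus replicate 2, and *Shmt2* without WT CON cortex replicate 1 or 3 or hippocampus replicate 2. 

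Among related genes of the WT CON brain, *Psph*, which follows *Psat1* in the pathway, was higher in the hippocampus (11.7 ± 1.53) than in the thalamus (9.13 ± 1.22, adjusted p = 0.038), and *Gldc*, of the glycine cleavage system, likewise (14.5 ± 2.69 and 5.76 ± 2.35, adjusted p = 0.00036 by limma). *Gcsh*, another part of that system, had the reverse order (28.2 ± 3.04 and 36.7 ± 6.0, adjusted p = 0.031), so the glycine cleavage genes did not share 1 order. *Slc25a32*, the mitochondrial folate carrier, was highest in the cortex (3.04 ± 0.635 against 1.53 ± 0.337 in the hippocampus and 1.85 ± 0.771 in the thalamus, adjusted p = 0.0064 and 0.032). *Mthfd1* was lower in the cortex than in the hippocampus and thalamus (12.7 ± 0.444, 16.6 ± 2.16 and 16.4 ± 2.78, adjusted p = 0.0073 and 0.016). *Slc7a3* had the order of *Mthfd2*, with 8.68 ± 1.06 in the thalamus, 5.23 ± 0.168 in the cortex (adjusted p = 0.026) and 3.61 ± 1.32 in the hippocampus (adjusted p = 0.00023 against the thalamus). All errors are SD, with n = 3 in the cortex and 4 elsewhere. Of the 22 serine and folate genes, 5 were higher and 1 lower in the thalamus than in the cortex, 8 and 3 in the hippocampus than in the cortex, and 3 and 2 in the hippocampus than in the thalamus. Of all genes 30.0%, 37.0% and 17.8% were called in these comparisons. These calls turned on the fit: under other settings the number of list genes called fell as low as 1, 0 and 0. With a library left out it ran from 8 to 35, 22 to 53 and 5 to 33.

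The 9 genes were compared with each other over the 34 libraries after the mean of each region was taken off. Pearson's r was above 0 for all 36 pairs, with a median of 0.51 and a range from 0.27 (*Asns* and *Atf5*) to 0.92 (*Phgdh* and *Psat1*). *Atf4* was nearest to *Chac1* (0.83), *Asns* (0.81) and *Shmt2* (0.76), and *Mthfd2* to *Atf4* (0.74), *Psat1* (0.71) and *Phgdh* (0.67). With the mean of each group of libraries taken off as well, 35 of 36 pairs stayed above 0, with a median of 0.46, *Phgdh* and *Psat1* at 0.92, and *Mthfd2* at 0.72 with both. The points share animals, groups, libraries and their GC measure, so these values describe and were not tested. Against the mean of 10 astrocyte markers, r was 0.36 for *Phgdh*, 0.27 for *Psat1* and between -0.19 and 0.20 for the other 7.

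**Figure D4:**
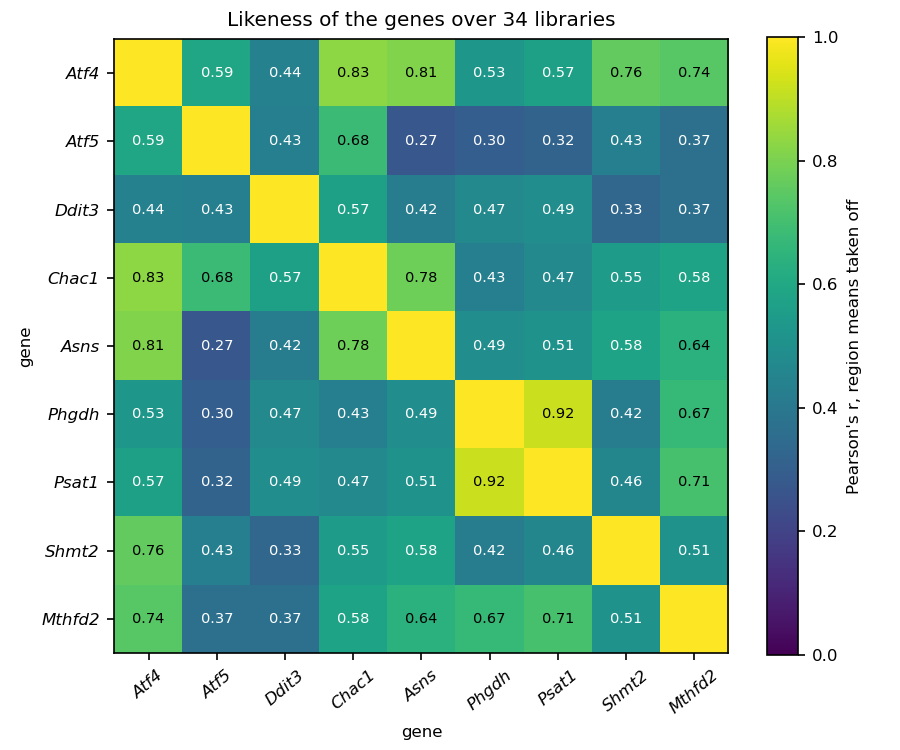
Pearson's r between each pair of the 9 genes tested over 34 libraries, on log2(FPKM + 0.1) with the mean of each region taken off (colour scale from 0 to 1, value printed in each cell off the diagonal). *Phgdh* with *Psat1* is the brightest of these at 0.92, and *Atf4*, *Chac1* and *Asns* form a block of 0.78 to 0.83.

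Among the genes tested, some of those most like *Mthfd2* on the same measure were *Cln8* (r = 0.79), *Rela* (0.776), *Hepacam* (0.755) and *Pnpla2* (0.745), over 34 libraries, and the median r of all genes with *Mthfd2* was 0.08. In the cortex the mean of *Rela*, a subunit of NF-kappa-B, was 9.84 FPKM in WT CON, 8.39 in GFP-BM CON and 9.33 in GFP-BM REPOP, and in the same order the means were for *Hepacam*, a glial adhesion molecule, 28.2, 25.3 and 25.5, and *Pnpla2*, a triglyceride lipase, 6.62, 5.70 and 5.61. No other gene of the set was among them. The measure that picked these genes includes the cortex libraries that chose *Mthfd2*, so nothing is read from their cortex means.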

How the data were processed

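The authors deposited FPKM values of 16389 genes in 34 libraries. Per the methods and the submitters' processing notes, reads were aligned with STAR to mm10, counted per gene (featureCounts, in Rsubread) and scaled with edgeR and limma. Whole reads were recovered from the FPKM steps (100.0% of values whole within 0.02), giving 17085018 to 26010509 reads per library (median 21367227), and low genes such as *Trib3* carry the largest counting error. Each library is 1 region of 1 mouse, and regions share mice. The groups came from the labels.

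The logarithm to base 2 of FPKM + 0.1 was analysed with limma 3.58.1 in R 4.3.3, for 14688 genes with an FPKM of at least 1 in at least 3 libraries. Of 15053 genes past that filter, 365 of biotypes other than protein coding and lncRNA were left out, and 346 of unknown biotype were tested. Treatments were compared in a fit per region with 3 groups, and regions, and their differences in response, in 1 joint fit to the 34 libraries that took the mouse as a random effect. Tests were two-sided, and calls needed p under 0.05 after Benjamini-Hochberg adjustment over all genes tested. A fold change on this scale understates the change of low genes. The procedure was tested on simulated data. Python 3.11.15 with numpy 2.4.6, pandas 2.3.3 and matplotlib 3.10.9 was used for tables and plots. GC content and length came from an annotation that matched 15985 genes.

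The members and lists were chosen with earlier results of these data known. All 10 members were given in every library or by their range. Of each pathway list, the up to 4 called genes with the largest fold change in a comparison could be named, besides *Mthfd2l*, *Mthfd1*, *Mthfd1l*, *Shmt1*, *Psph* and *Hspa5*, and the 5 genes of highest correlation with *Mthfd2*, of which 1 is not reported here. The lists held 12 stress sensors and regulators, 23 ATF4 targets and transporters, 12 tRNA synthetases, 22 serine and folate genes, 8 purine synthesis genes, 16 genes of the unfolded protein response and 7 mitochondrial chaperones and proteases that were tested. Alternatives were other pseudocounts, filters and scalings, voom, a correction for GC content and length, other fits, and each library left out. Replicate numbers named different mice in the 3 groups. No 2 libraries of a group agreed within sampling noise.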

Additional observations from a re-analysis of the deposited data

Results flagged for a closer look

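In 70 combinations of a member and a group of 4 libraries, the highest or lowest library stood far from the other 3 in 3 cases, by Dixon's ratio of its gap to the range of the group (limit 0.829), where chance marks about 1 group in 20. *Atf4* was 38.0 FPKM in WT CON hippocampus replicate 3 and 46.5 to 47.9 in the other 3 (ratio 0.866). *Atf5* was 20.0 FPKM in GFP-BM REPOP cortex replicate 1 and 8.94 to 9.71 in the others (ratio 0.93). *Phgdh* was 42.9 FPKM in GFP-BM CON hippocampus replicate 4 and 25.6 to 28.4 in the others (ratio 0.836).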

How the results depend on the processing

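Besides the main analysis, counts of members called were taken again with pseudocounts of 1 and 0.01, 2 other filters, quantile and median-ratio scaling, voom on recovered reads, a correction for GC content and length, no variance trend, array weights, other choices of libraries in the fit, and each library left out. No direction of a named fold change with an unadjusted p under 0.05 was reversed. Of these counts, 447 stayed within 1.5 times the main one and 45 did not, and the causes were not tested. For GFP-BM REPOP against WT CON in the cortex (2 members called) the count was 0 with all 9 groups in 1 fit, 1 with only the 2 groups compared, up to 3 under the other settings, and 2 to 4 with a library left out. For GFP-BM CON against WT CON in the hippocampus (0) it was 5 with array weights, 4 with all 9 groups, and 0 to 2 with a library left out, and for GFP-BM REPOP against GFP-BM CON there (0) it was 2 with array weights and 1 with all 9 groups. In the thalamus, the count for GFP-BM CON against WT CON (0) was 2 with array weights, 3 with all 9 groups and 0 to 3 with a library left out, and for GFP-BM REPOP against WT CON (0) it was 1 at a pseudocount of 1, 3 with quantile scaling, with array weights or with all 9 groups, and 0 to 4 with a library left out. A setting added after seeing the data, without replicate 1 of WT CON in both hippocampus and thalamus, gave 3 and 4 in these thalamus comparisons, and 2 and 3 with the correction for GC content in addition. Between WT CON regions the count fell to 0 in all 3 comparisons with only the WT CON libraries and the animal as a fixed block. For hippocampus against cortex (1) it was 2 with quantile scaling or array weights, 3 with the GC correction, 2 with that and without replicate 1, and 0 to 2 with a library left out. For thalamus against cortex (2) it was 1 to 3 with a library left out and 4 with the GC correction without replicate 1. For hippocampus against thalamus (1) it was 2 with quantile scaling, array weights or without replicate 1, 3 with the GC correction with or without that replicate, and 1 to 2 with a library left out. For the difference of GFP-BM REPOP against GFP-BM CON between thalamus and hippocampus (0) it was 1 with array weights. The same-numbered libraries of different groups came from different mice, and only 5 of 32 pairs had deviations that correlated above 0.1 (-0.43 to 0.49). With the replicate number as a block the count of members called stayed at 2 in the cortex for GFP-BM REPOP against WT CON and at 0 in the other comparisons between treatments, while that of list genes called in the former went from 5 to 0. Depth limits *Trib3*, with 4 to 52 reads per library, and to a lesser degree *Mthfd2* and *Chac1*.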
